A study of Homo sapiens with 4 samples.

Results

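The genes described are the collagens and the enzymes and chaperone that modify, fold and cross-link them, measured in SCC-15 cells, an established human line from a squamous cell carcinoma of the tongue. Members were taken by symbol from the platform annotation: every gene whose symbol starts with COL, a number and A, apart from COL17A1, together with the lysyl hydroxylase genes PLOD1 to PLOD3, the prolyl 4-hydroxylase alpha subunit genes P4HA1 to P4HA3, LOX and LOXL1 to LOXL4, and SERPINH1. This gave 56 genes with 154 single-gene probe sets, of 18132 genes with 44988 single-gene probe sets in all. They were 43 collagen chain genes, 12 modifying genes and COL18A1-AS1, an antisense RNA gene that met the letters of the symbol rule and encodes no collagen chain. One group of cells had been transfected with a microRNA mimic (2 arrays) and the other with miR-NC, a negative control (2 arrays), each at 30 nM, 24 h after seeding, with RNA taken 36 h after transfection. Both groups were the same unmodified line, so that all values describe transfected tumour cells in culture. The series title and design text call the mimic miR-762, while both mimic samples are labelled miR-585-5p. The group is called mimic below, and no value depends on its name. Nothing in the labels says whether replicates came from separate cultures, so p-values measure the spread between arrays, which may be technical.

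Collagens are triple helices of chains rich in glycine and proline. In the endoplasmic reticulum, prolyl hydroxylases stabilise the helix, lysyl hydroxylases prepare lysines for cross-links and sugars, and the chaperone HSP47 holds the folded helix until export. After secretion and removal of the propeptides, lysyl oxidases form the cross-links between molecules. Squamous epithelial cells are known for the collagens of the basement membrane they rest on, whereas the fibrillar collagens of connective tissue come mostly from fibroblasts.

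The mature sequences of both named microRNAs are shown because the labels disagree on which one the cells received. Capitals mark the seed, bases 2 to 8 from the 5′ end, and the sequences are from RefSeq (GRCh38.p14).
hsa-miR-585-5p (chr5:169263649-169263670, minus strand): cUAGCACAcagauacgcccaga
hsa-miR-762 (chr16:30893951-30893972, plus strand): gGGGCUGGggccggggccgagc
The seeds differ, so the names stand for microRNAs with different targeting letters. The arrays were not used to decide between them.

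Values are log2 intensities of RMA-summarised probe sets, and every difference is mimic minus control on that scale. For each gene the brightest probe set, by mean over the 4 arrays, was read, and probe sets in the lowest 30% by mean level (below 2.83) were not tested. Of the 56 members, 41 passed this filter on level and 15 did not. A gene is said to have risen or fallen where limma gave an adjusted p under 0.05 over all 14340 genes tested. Among those genes, 30.1% were called, 17.7% as higher and 12.3% as lower. Over probe sets, Pearson's r between replicates was 0.998 for the mimic pair and 0.997 for the control pair, as a description. The labelled cell type was checked against its markers. All 5 squamous markers with a single-gene probe set (KRT5, KRT14, CDH1, DSP and DSG3) passed the filter. Of 7 mesenchymal markers, PDGFRA, DCN, LUM, THY1 and POSTN were below it. PDGFRB and FAP were above it, at mean log2 levels of 4.50 and 5.92, and neither was called as higher or lower. Of the squamous markers, KRT14 rose by 1.15 (adjusted p = 0.00479) and KRT5 by 0.48 (adjusted p = 0.00653), and 3 did not pass. Of 4 markers of blood cells and endothelium, PTPRC was below the filter. CD68, at a mean level of 5.85, rose by 0.34 (adjusted p = 0.0398). PECAM1 (4.17) and CDH5 (3.94) were above the filter and were not called. The part of these genes in the results on collagens was not tested.

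Of the 41 tested members, 8 rose, 1 fell and 32 did not pass. This is 22.0% called, against the 30.1% of all genes. The calls were unevenly spread by role. Of 10 tested modifying genes 5 rose and none fell, whereas of 30 tested collagen chain genes 3 rose and 1 fell. The roles also differed in level. In the lowest of 4 bins by level, which held 16 chain and 2 modifying genes, 216 of 3585 genes rose and 457 fell. In the highest, which held 3 chain and 5 modifying genes, 725 of 3585 rose and 385 fell. The part of level in these calls was not tested. The members that rose were the lysyl hydroxylase genes PLOD2 and PLOD1, the prolyl hydroxylase gene P4HA2, the lysyl oxidase genes LOXL2 and LOXL1, and the chain genes COL6A1, COL18A1 and COL7A1. COL9A2 fell. PLOD2, LOXL2 and COL6A1 rose by 1 or more on the log2 scale, 3 of the 41, where 2.06% of all genes did. The other probe sets of LOXL2 and COL6A1 lay below 1, whereas all those of PLOD2 lay above it. The median difference was 0.33 for the modifying genes and -0.11 for the chain genes, beside -0.02 for all genes. In whole-culture RNA, fewer cells of a kind and less RNA per cell cannot be told apart. After a further quantile normalization, 7 members were higher and 2 lower.

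**Figure D1:**
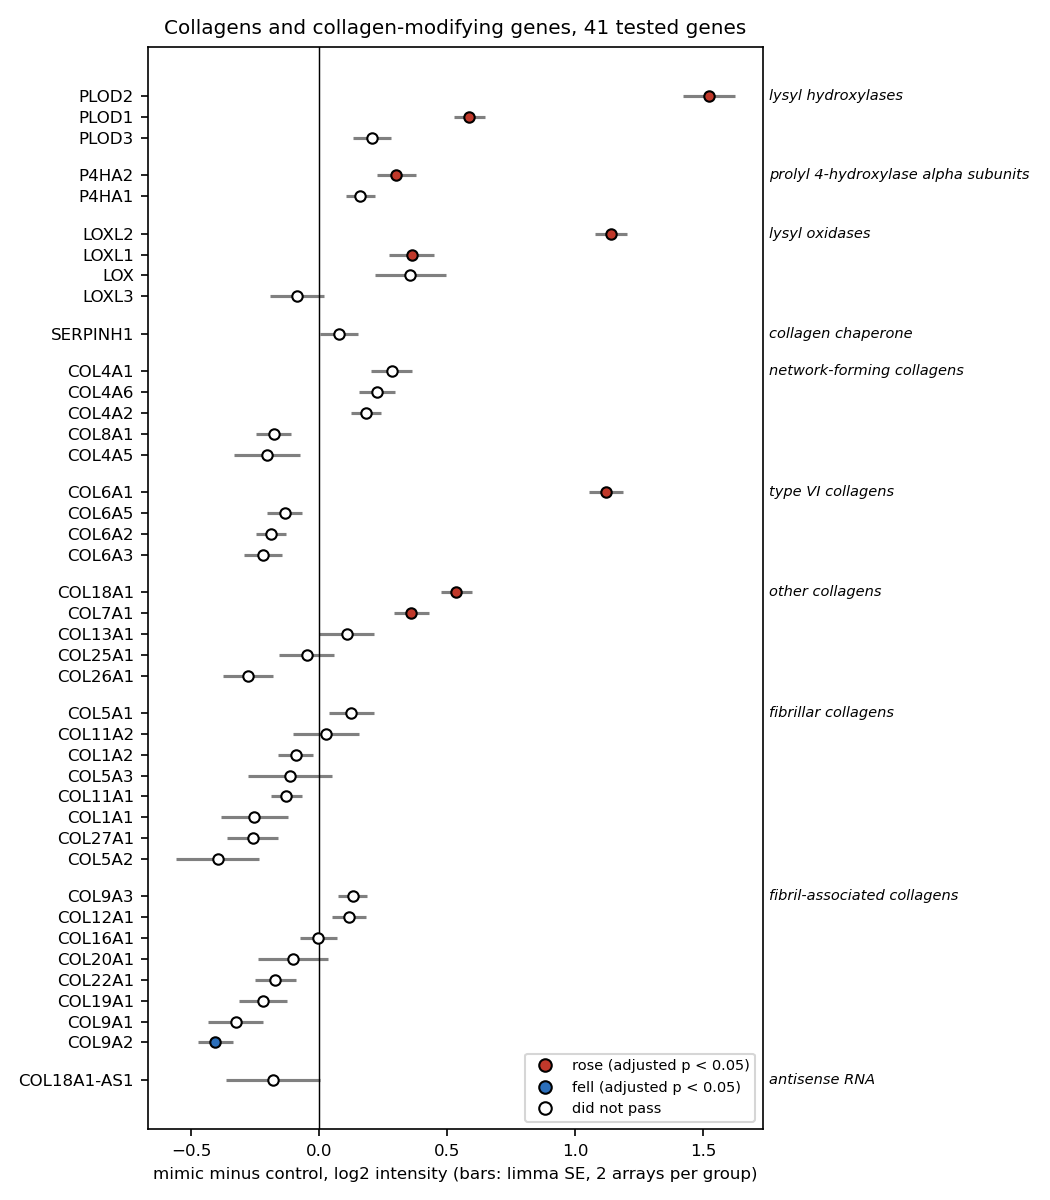
Difference of each of the 41 tested members (mimic minus control, log2 intensity, with limma's standard error, 2 arrays per group), sorted by role. PLOD2, LOXL2 and COL6A1 lie above 1, and the fibrillar collagens lie between -0.40 and 0.13 with none called.

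Lysyl hydroxylases convert lysines of collagen to hydroxylysine, the residue that later carries cross-links and sugars. PLOD2, whose product hydroxylates the lysines of the telopeptides at the chain ends, had log2 levels of 9.86 and 9.83 in the mimic arrays, against 8.46 and 8.19 in the control arrays. The groups were well apart, and the control arrays differed from each other more than the mimic arrays did. PLOD2 rose by 1.52 ± 0.10 (SE), a 2.87-fold difference (limma, adjusted p = 0.00169). All 4 of its probe sets rose, by between 1.43 and 1.66. PLOD1, whose product acts on lysines within the helix, stood at 5.87 and 5.82 in the mimic arrays and at 5.23 and 5.29 in the control arrays. It rose by 0.59 ± 0.060 (SE), 1.50-fold (adjusted p = 0.00435), and both of its probe sets rose, each by 0.59. The third member, PLOD3, encodes an enzyme that also adds sugars to hydroxylysine. Its levels were 10.08 and 10.12 in the mimic arrays and 9.81 and 9.97 in the control arrays, close together but without overlap. Its difference of 0.21 ± 0.076 (SE) did not pass (adjusted p = 0.0984), and of its 5 probe sets 4 were higher and 1 lower, from -0.16 to 0.21. Under 9 settings other than left-out arrays, PLOD3 passed in 2. Differences between the 3 genes' responses were not tested.

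The promoters of the lysyl hydroxylase genes and of LOX are shown because PLOD1 and PLOD2 rose and PLOD3 and LOX did not pass. Each window runs from 250 bases before to 50 after the start of the gene, 5′ to 3′ on the gene's strand, from RefSeq (GRCh38.p14). Capitals mark the letters ACGTG or GCGTG on either strand, which read CACGT or CACGC on the strand shown. They are the core of the hypoxia response element, which hypoxia-inducible factors bind.
PLOD2 (chr3:146161135-146161434, minus strand): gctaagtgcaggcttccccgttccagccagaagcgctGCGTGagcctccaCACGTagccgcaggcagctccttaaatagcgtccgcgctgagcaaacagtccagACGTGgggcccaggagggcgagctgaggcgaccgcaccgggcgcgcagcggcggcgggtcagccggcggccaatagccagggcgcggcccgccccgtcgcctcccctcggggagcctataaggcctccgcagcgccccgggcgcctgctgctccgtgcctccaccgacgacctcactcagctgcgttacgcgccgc
PLOD1 (chr1:11934467-11934766, plus strand): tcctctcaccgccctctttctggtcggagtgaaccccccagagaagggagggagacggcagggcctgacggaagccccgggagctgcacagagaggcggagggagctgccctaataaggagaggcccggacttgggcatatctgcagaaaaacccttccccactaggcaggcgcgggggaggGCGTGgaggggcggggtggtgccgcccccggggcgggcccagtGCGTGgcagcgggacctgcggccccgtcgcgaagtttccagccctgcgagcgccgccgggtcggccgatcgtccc
PLOD3 (chr7:101217532-101217831, minus strand): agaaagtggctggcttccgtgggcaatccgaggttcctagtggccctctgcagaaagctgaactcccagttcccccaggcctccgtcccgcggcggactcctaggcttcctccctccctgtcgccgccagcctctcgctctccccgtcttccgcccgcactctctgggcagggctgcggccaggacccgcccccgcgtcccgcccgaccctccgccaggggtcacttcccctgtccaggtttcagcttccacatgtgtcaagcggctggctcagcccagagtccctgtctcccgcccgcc
LOX (chr5:122078210-122078509, minus strand, the outermost of 3 annotated starts): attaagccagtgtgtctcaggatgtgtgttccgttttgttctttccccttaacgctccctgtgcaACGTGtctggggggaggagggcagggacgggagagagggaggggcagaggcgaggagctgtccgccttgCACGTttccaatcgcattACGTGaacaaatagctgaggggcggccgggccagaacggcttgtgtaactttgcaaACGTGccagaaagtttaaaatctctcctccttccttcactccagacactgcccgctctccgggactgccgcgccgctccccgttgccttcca
The window of PLOD2 held 3 matches, that of PLOD1 2, that of LOX 4 and that of PLOD3 0. A match is common: 48.4% of 35116 promoter windows of the same length held 1 or more, and 10.1% held 3 or more. Among the 42 members with a window the share was 47.6%, and of the 6 of these that rose, 2 held a match (PLOD1 and PLOD2). The matches are letters in a sequence and show no binding.

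Prolyl 4-hydroxylase is built from an alpha subunit that holds the active site and a beta subunit, protein disulfide isomerase. P4HA2 was at 9.43 and 9.57 in the mimic arrays, against 9.24 and 9.16 in the control arrays. The groups did not overlap, and P4HA2 rose by 0.30 ± 0.076 (SE), 1.23-fold (adjusted p = 0.0406). The call did not hold after quantile normalization (0.24, adjusted p = 0.0710), without a filter on level or with a replicate block. In limma's test over all tested probe sets, the same values did not pass either (adjusted p = 0.0546). P4HA1 was at 9.92 and 9.94 in the mimic arrays and at 9.78 and 9.76 in the control arrays. Its groups were also apart, with very close replicates, but the difference of 0.16 ± 0.056 (SE) did not pass (adjusted p = 0.0876). Under 8 settings other than left-out arrays, P4HA1 passed in 2. P4HA1 and P4HA2 had 1 probe set each, and P4HA3 was below the filter. SERPINH1, the gene of HSP47, overlapped between groups, at 7.43 and 7.52 in the mimic arrays against 7.47 and 7.34 in the control arrays. Its difference was 0.08 ± 0.074 (SE; adjusted p = 0.465), and it was -0.02 after quantile normalization.

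Lysyl oxidases oxidise lysines and hydroxylysines of secreted collagen, the first step of cross-linking. LOXL2, which also acts on basement membrane type IV collagen, was at 7.22 and 7.15 in the mimic arrays, against 6.07 and 6.01 in the control arrays. Replicates lay close together in both groups. LOXL2 rose by 1.14 ± 0.063 (SE), 2.20-fold (adjusted p = 0.00128). Its other probe sets gave smaller positive differences: 0.28 for the other tested one, which did not pass (adjusted p = 0.0607), and 0.70 and 0.07 for those below the filter. As the mean over its tested probe sets alone LOXL2 still passed, at 0.71 (adjusted p = 0.00170). Those below the filter did not enter this mean. LOXL1 was at 3.40 and 3.29 in the mimic arrays and at 2.89 and 3.08 in the control arrays, levels near the filter. LOXL1 rose by 0.36 ± 0.088 (SE; adjusted p = 0.0371), a call lost without a filter on level, with a replicate block and on the scale log2(intensity + 16), where the difference was 0.13. LOXL3 overlapped between groups (difference -0.09), and LOXL4 was below the filter.

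LOX itself, the founding member of the family, had the largest standard error of its 4 tested genes. Its levels were 9.63 and 9.80 in the mimic arrays and 9.54 and 9.18 in the control arrays. The groups did not overlap, but the gap between the control arrays was larger than the gap between the groups, and the difference of 0.36 ± 0.14 (SE) did not pass (adjusted p = 0.113). Of its 6 probe sets 5 were higher and 1 lower, from -0.22 to 0.78. The one at 0.78 rose (adjusted p = 0.0248 over 31711 probe sets), at 6.85 and 6.87 in the mimic arrays against 6.30 and 5.86 in the control arrays. With the mean over all probe sets in place of 1 probe set, LOX passed (0.36, adjusted p = 0.0431).

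**Figure D2:**
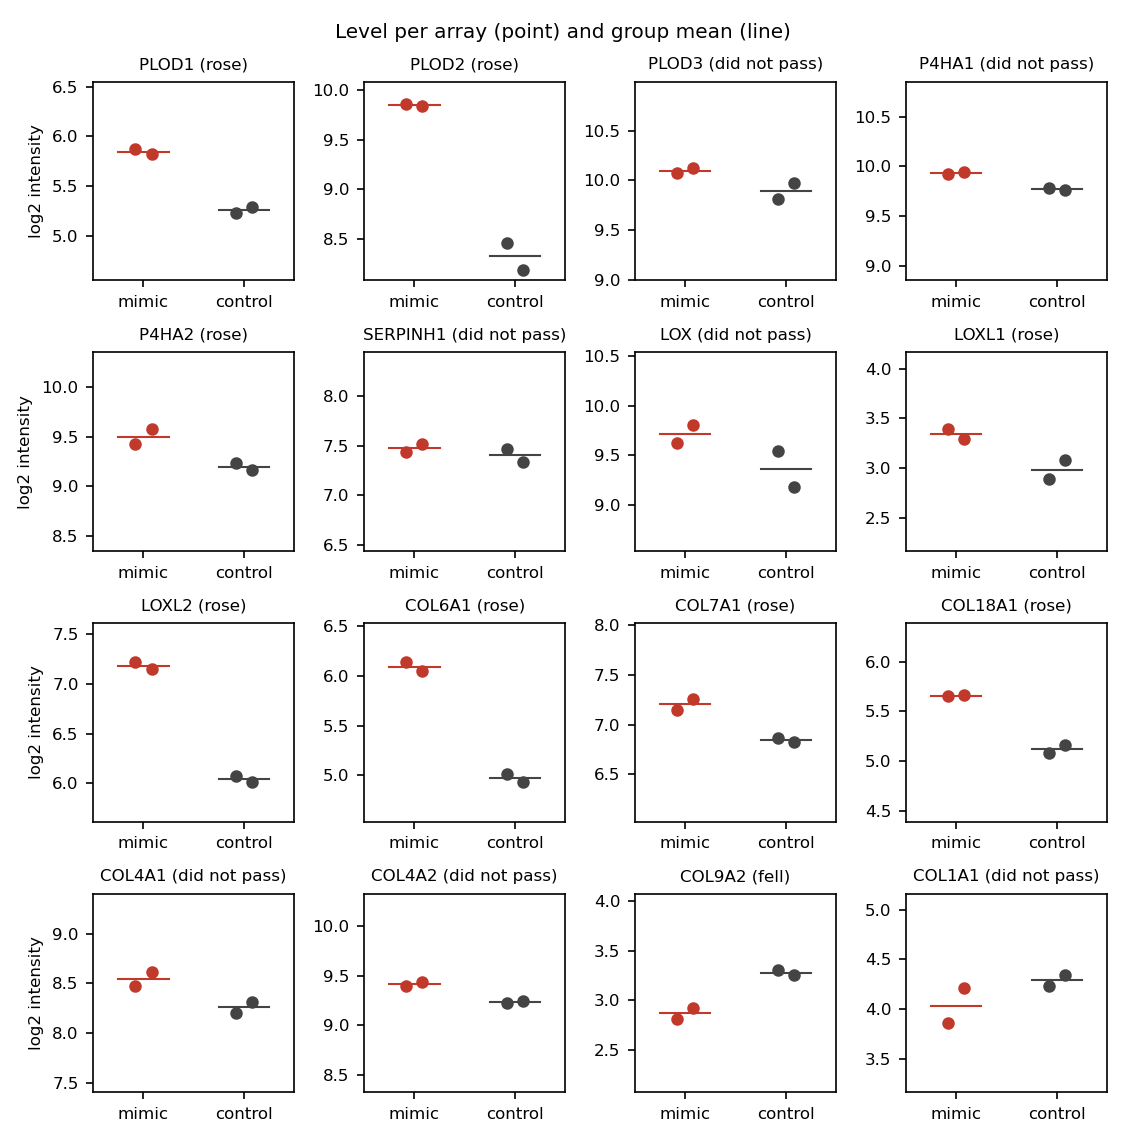
Log2 intensity of 16 members in each array (points) with the group mean (line), mimic left of control, each panel spanning 2 log2 units. PLOD2, LOXL2 and COL6A1 show the widest gaps between groups among these panels, and SERPINH1 is the 1 panel in which the groups overlap.

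The type IV chain genes COL4A1, COL4A2, COL4A5 and COL4A6 passed the filter, whereas COL4A3 and COL4A4 were below it. Type IV collagen forms the sheet-like network of basement membranes. COL4A1 was at 8.47 and 8.61 in the mimic arrays, against 8.20 and 8.32 in the control arrays. COL4A2, whose chain joins that of COL4A1 in the common type IV trimer, was at 9.39 and 9.44 in the mimic arrays, against 9.22 and 9.24 in the control arrays. Neither pair of groups overlapped, and neither gene passed: the differences were 0.28 ± 0.079 (SE; adjusted p = 0.0517) for COL4A1 and 0.18 ± 0.057 (SE; adjusted p = 0.0686) for COL4A2. Both passed with the stricter filter that left out the lowest 50% (adjusted p = 0.0319 for COL4A1 and 0.0456 for COL4A2). Without _s_at and _x_at probe sets, COL4A1 was at 0.13 (adjusted p = 0.351) and COL4A2 at 0.12 (adjusted p = 0.367). COL4A6, whose chain is found in epithelial basement membranes, gave 0.23 ± 0.070 (SE; adjusted p = 0.0667), with all 7 probe sets higher. COL4A5, whose chain pairs with that of COL4A6, gave -0.20 ± 0.13 (SE; adjusted p = 0.274), with all 3 probe sets lower, 1 of them past the threshold at -0.34 (adjusted p = 0.0464).

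The type IV genes lie head to head in pairs that share a promoter region. The COL4A1 window is shown because COL4A1 and COL4A2 gave differences of the same sign and the COL4A5 and COL4A6 pair did not. Capitals mark the 126 bases between the start of COL4A1 and that of COL4A2, which is read from the opposite strand. Sequence and positions are RefSeq's (GRCh38.p14).
COL4A1 (chr13:110307108-110307407, minus strand): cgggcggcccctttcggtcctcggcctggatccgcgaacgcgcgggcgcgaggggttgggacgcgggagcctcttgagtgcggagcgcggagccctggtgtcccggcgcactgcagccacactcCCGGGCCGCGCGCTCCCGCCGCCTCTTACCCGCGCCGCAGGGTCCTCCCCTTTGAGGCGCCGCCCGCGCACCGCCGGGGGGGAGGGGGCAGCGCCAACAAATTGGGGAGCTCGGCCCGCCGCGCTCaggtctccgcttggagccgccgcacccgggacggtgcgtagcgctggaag
The starts of COL4A6 and COL4A5 were 379 bases apart by the same annotation, taking the outermost start of COL4A6. Within each array, the log2 ratio of COL4A6 over COL4A5 was 1.12 and 1.05 in the mimic arrays, against 0.55 and 0.77 in the control arrays. The ratio of COL4A2 over COL4A1 was 0.92 and 0.82 in the mimic arrays, against 1.02 and 0.93 in the control arrays. These ratios were computed after the genes' values were seen, and they are given as a description and were not tested.

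Of 8 other collagen chain genes, 5 were tested, of which COL18A1 and COL7A1 rose and 3 did not pass. Across all genes 17.7% rose, and 5 genes are too few to set against that share. COL18A1 encodes the basement membrane collagen from which endostatin is cut. It was at 5.65 and 5.67 in the mimic arrays, against 5.08 and 5.16 in the control arrays. The groups were clearly apart, and COL18A1 rose by 0.53 ± 0.061 (SE), 1.45-fold (adjusted p = 0.00551). Its second probe set also rose, by 0.38 (adjusted p = 0.0455). COL18A1-AS1 overlapped between groups and gave -0.18 (adjusted p = 0.486). COL7A1 encodes the collagen of the anchoring fibrils that tie the basement membrane to the tissue beneath. It was at 7.14 and 7.26 in the mimic arrays, against 6.86 and 6.82 in the control arrays, and rose by 0.36 ± 0.068 (SE), 1.28-fold (adjusted p = 0.0197). It had 1 probe set. The transmembrane collagen gene COL13A1 did not pass on its highest probe set (0.11), while another of its 4 probe sets rose by 0.68 (adjusted p = 0.0306).

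Type VI collagen forms beaded filaments around cells. COL6A1 was at 6.14 and 6.05 in the mimic arrays, against 5.02 and 4.93 in the control arrays, and this probe set rose by 1.12 ± 0.067 (SE), 2.17-fold (adjusted p = 0.00133). The other 5 probe sets of COL6A1 did not follow it. Their differences lay between -0.08 and 0.28, 4 of them were tested, and none passed. The next in level was at 5.29 and 5.34 in the mimic arrays and at 5.50 and 5.25 in the control arrays, groups that overlap. The probe set that rose is of the _s_at kind, a suffix Affymetrix gives where the probes match more than 1 transcript. With _s_at and _x_at probe sets left out, COL6A1 gave -0.04 (adjusted p = 0.775), and the mean over its tested probe sets gave 0.24 (adjusted p = 0.0966). COL6A2 and COL6A3, whose chains join that of COL6A1 in the same molecule, gave -0.19 (adjusted p = 0.0663) and -0.22 (adjusted p = 0.0812). All 4 probe sets of COL6A2 were lower, by -0.28 to -0.19, and 1 of them fell (-0.26, adjusted p = 0.0486).

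**Figure D3:**
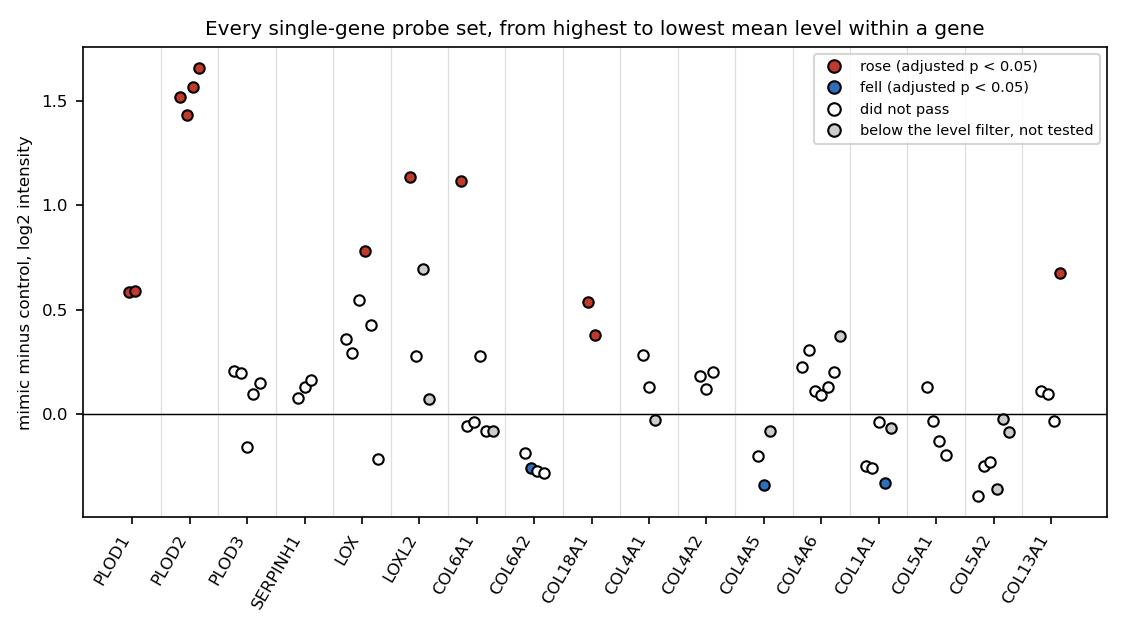
Difference (mimic minus control, log2 intensity) of every single-gene probe set of 17 members, ordered within a gene from highest to lowest mean level. All 4 probe sets of PLOD2 lie between 1.43 and 1.66, whereas 1 of 6 probe sets of COL6A1 lies at 1.12 and the others between -0.08 and 0.28.

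Counted by probe set, 85 of the 154 passed the filter. Of these, 14 rose and 4 fell, or 21.2%, against 22.4% of all 31711 probe sets tested (14.5% higher and 7.95% lower). Probe sets of 1 gene share their transcript and are not replicates. The 9 called probe sets of modifying genes were all higher, whereas those of the chain genes were 5 higher and 4 lower. Those that fell belonged to COL9A2, COL4A5, COL6A2 and COL1A1. COL4A5 and COL6A2 are named after their values were seen.

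Fibrillar collagens, the rods of connective tissue, were not called. Of 11 genes, 8 passed the filter, and their differences lay between -0.40 and 0.13 with a median of -0.12. Among all genes 30.1% were called, with 12.3% lower. Of the 8, COL1A1, COL1A2, COL11A1, COL11A2 and COL27A1 lay in the lowest of 4 bins by level. In that bin 216 of 3585 genes rose and 457 fell, and 8 genes are few to set against such shares. COL1A1, which encodes the main chain of type I collagen, was at 3.85 and 4.21 in the mimic arrays, against 4.23 and 4.34 in the control arrays. Its difference of -0.25 ± 0.13 (SE) did not pass (adjusted p = 0.198), although all 5 probe sets were lower and 1 of them fell (-0.34, adjusted p = 0.0253). COL3A1, COL2A1 and COL24A1 were below the filter. Of 10 fibril-associated collagen genes, 8 were tested and 1 fell. This was COL9A2, a chain of cartilage type IX collagen, at 2.81 and 2.93 in the mimic arrays, against 3.30 and 3.25 in the control arrays. Its difference was -0.41 ± 0.068 (SE; adjusted p = 0.0147), and the first mimic array was itself below the filter level of 2.83. On the scale log2(intensity + 16) COL9A2 did not pass (-0.14, adjusted p = 0.0578). COL12A1, another fibril-associated collagen gene, gave 0.12 ± 0.067 (SE; adjusted p = 0.234), at 4.04 and 4.15 in the mimic arrays against 3.97 and 3.98 in the control arrays.

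Small negative differences went with low level, among all genes as among the collagens. The tested genes were divided by mean level into 4 bins of equal size. In the lowest bin (2.83 to 4.36), 71.7% of all genes had a negative difference, with a median of -0.11. Of the 30 tested chain genes, 16 lay in that bin, of which 13 were negative, with a median of -0.18. In the highest bin (7.65 and above), where 44.3% of all genes were negative with a median of 0.03, lay the chain genes COL4A1, COL4A2 and COL4A6 and 5 modifying genes. All 8 of these were positive. The part that level plays in the differences and calls of the chain genes was not tested. In total 29 of the 41 tested members had groups that did not overlap, against 70.4% of all genes.

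**Figure D4:**
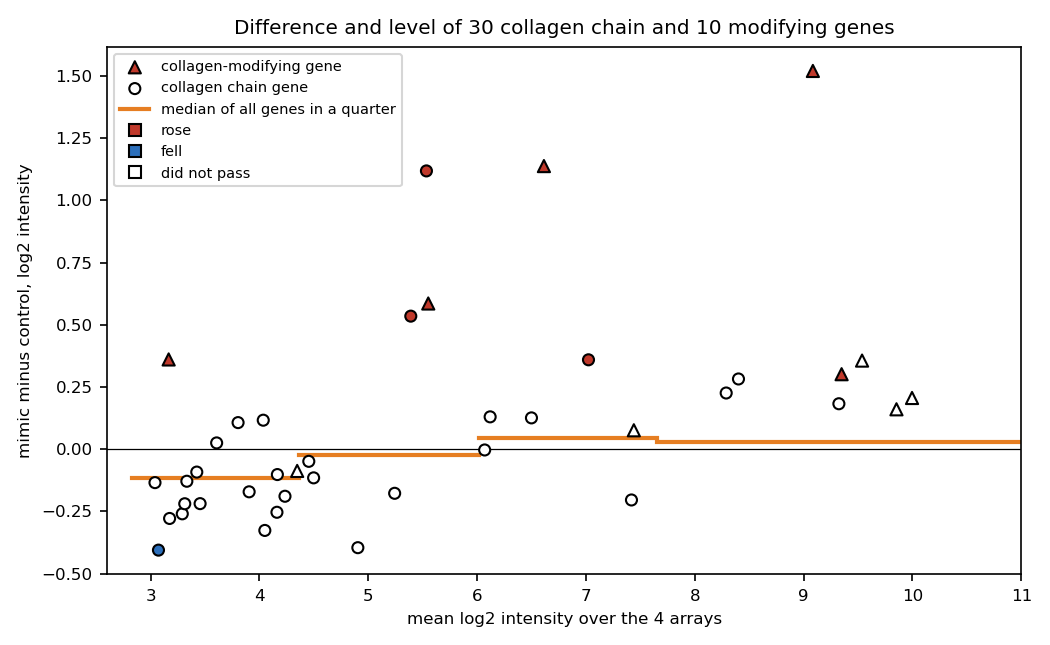
Difference (mimic minus control, log2 intensity) against mean log2 intensity for 30 chain genes (circles) and 10 modifying genes (triangles), with the median of all tested genes in each of 4 bins of level (orange lines). Chain genes below a level of 4.36 lie mostly under 0, where the median of all genes is -0.11.

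Genes around the members in the collagen pathway were read from the same fit. Of 43 listed, 41 had a single-gene probe set and 36 were tested, of which 12 rose, 5 fell and 19 did not pass. This is 47.2% called, against 30.1% of all genes, with a median of 0.09 against -0.02. After quantile normalization 9 were higher and 7 lower. Genes of folding and modification in the endoplasmic reticulum had 7 of 14 higher and 1 lower. They included FKBP14, a prolyl isomerase gene, at 8.76 and 8.81 in the mimic arrays against 8.13 and 8.19 in the control arrays (0.62 ± 0.060 SE, adjusted p = 0.00383). P3H4, whose product works with the lysyl hydroxylase encoded by PLOD1, was at 7.46 and 7.55 in the mimic arrays against 6.89 and 6.94 in the control arrays (0.59 ± 0.065 SE, adjusted p = 0.00509). P3H1, a prolyl 3-hydroxylase gene, rose by 0.43 ± 0.056 (SE; adjusted p = 0.00745).

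FKBP10 encodes a prolyl isomerase that assists the enzyme encoded by PLOD2. It rose by 0.44 ± 0.074 (SE; adjusted p = 0.0147) on its highest probe set, but its 5 probe sets ranged from -0.45 to 0.44. Its difference was -0.44 without _s_at and _x_at probe sets (adjusted p = 0.0208) and -0.04 as the mean over probe sets above the filter. COLGALT1, which also rose on its highest probe set (0.38), had its other probe set at -0.17. COLGALT1 is named after its value was seen. P4HB, the partner of the prolyl hydroxylase alpha subunits, gave 0.11 on its highest probe set and did not pass (adjusted p = 0.202). The differences of its 6 probe sets were all positive, from 0.11 to 0.52. P4HB is named after its value was seen. Among genes of propeptide cleavage, 1 of 6 rose, beside 17.7% of all genes. PCOLCE2, which encodes an enhancer of procollagen C-proteinase, was at 5.87 and 5.89 in the mimic arrays, against 4.72 and 4.75 in the control arrays. With replicates this close it rose by 1.14 ± 0.057 (SE), 2.21-fold (adjusted p = 0.00112), on 1 probe set.

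No gene among the 4 tested fibril partners was called on its highest probe set, and 4 genes are too few to set against the 30.1% of all genes. FN1 gave 0.07 there, but its 8 probe sets were all positive, from 0.07 to 0.99. SPARC gave 0.16, and its 8 probe sets ranged from -0.20 to 0.41. Both are named after their values were seen, and these ranges take in any probe sets below the filter. Of 9 tested receptor genes, 3 rose and 2 fell, beside 17.7% of all genes higher and 12.3% lower. MRC2, the gene of a receptor that takes up collagen fragments, was at 8.27 and 8.31 in the mimic arrays, against 7.61 and 7.62 in the control arrays. It rose by 0.67 ± 0.057 (SE; adjusted p = 0.00273), but its 4 probe sets ranged from -0.25 to 0.67. The mean over those above the filter did not pass (0.10, adjusted p = 0.263). ITGA10, the gene of a collagen-binding integrin chain, was at 4.66 and 4.65 in the mimic arrays, against 5.20 and 5.19 in the control arrays. It fell by 0.54 on the log2 scale (adjusted p = 0.00437), and its 3 probe sets ranged from -0.54 to -0.03. Of the 3 transcription factor genes 1 rose and 2 fell, too few genes to set against those shares. RUNX2, known for its role in bone-forming cells, rose by 0.58 ± 0.069 (SE; adjusted p = 0.00614), with another probe set at -0.08.

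**Figure D5:**
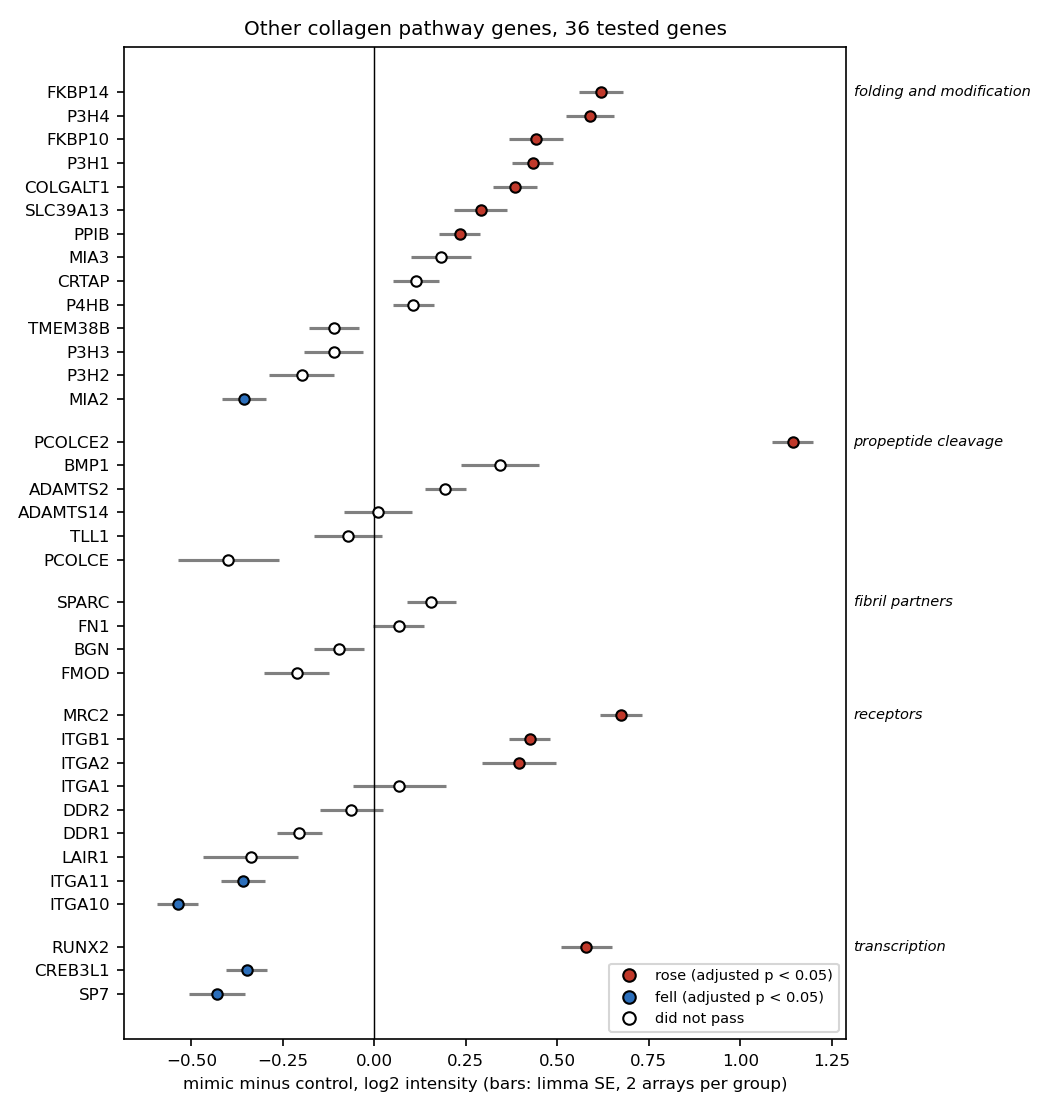
Difference (mimic minus control, log2 intensity, with limma's standard error, 2 arrays per group) of the 36 tested pathway genes that are not collagens or their core modifying enzymes, by role. PCOLCE2 lies at 1.14, and 7 of 14 genes of folding and modification rose on their highest probe set, beside 17.7% of all genes.

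Fewer calls were made when any single array was left out, and none were made when it was a mimic array. Without mimic replicate 1 or mimic replicate 2 limma called no gene at all, the smallest adjusted p being 0.0550 and 0.0551; 10 and 11 members had an unadjusted p under 0.05. When either control array was left out, fewer members passed than in the main fit. With each of the 4 arrays left out in turn, PLOD2 lay between 1.39 and 1.66, and LOXL2 between 1.10 and 1.18. COL6A1 lay between 1.07 and 1.16 on its highest probe set, PLOD1 between 0.56 and 0.61, and COL18A1 between 0.50 and 0.57. Several members that did not pass moved more. LOX was at 0.17 without control replicate 2 and at 0.54 without control replicate 1, and COL1A1 was at -0.07 without mimic replicate 1 and at -0.43 without mimic replicate 2. PLOD3 lay between 0.13 and 0.28, COL12A1 between 0.06 and 0.17, and SERPINH1 between 0.012 and 0.14. None of these differences changed sign in the 4 fits.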

How the data were processed

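Total RNA of 4 samples (2 mimic, 2 control) was hybridised, 1 sample per array, as biotinylated cRNA prepared from 2 µg of RNA (per the labels' protocols). The deposited values are 1 intensity per probe set and array, made by the authors with RMA per the submitters' processing notes. The program and options behind RMA are not given in the sources here. The values were on a linear scale (array medians of 17.2 to 17.5), so log2 was taken. No detection calls were used, and precision is limited by the number of arrays. Of 49293 probe sets, 44988 had 1 gene symbol in the platform annotation, 1832 had several and 2473 had none; only the first were used. Symbols were updated through gene identifiers to RefSeq GRCh38.p14 (44961 matched). The main test was limma 3.58.1 (R 4.3.3; lmFit and eBayes, 4.98 total degrees of freedom, no replicate block) with Benjamini-Hochberg adjustment, once over 14340 genes and once over 31711 probe sets; the fit was tested on simulated data.

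Samples were grouped by their titles. Same-numbered arrays were not taken as pairs: deviations of equal numbers correlated at -0.00105 between groups. The members and lists were chosen with earlier results of these data known. Named with values are all called members, 12 members fixed by name (COL1A1, COL4A1, COL4A2, COL6A1, COL7A1, COL12A1, COL18A1, LOX, P4HA1, PLOD1, PLOD3 and SERPINH1), and the 8 called pathway genes with the largest difference. Other genes with values, such as COL4A5, COL4A6, COL6A2, COL6A3, COL13A1 and LOXL3, were added after their values were seen, as parts of the same molecules or families. Alternatives were other filters, normalizations, log offset, variance trend, replicate block, probe set choices and left-out arrays.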

Additional observations from a re-analysis of the deposited data

How the results depend on the processing

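Under 9 settings other than left-out arrays, PLOD2, LOXL2, PLOD1, COL18A1 and COL7A1 passed each time, with PLOD2 between 1.45 and 1.54. With a variance trend 15 of 41 members were called (7 chain genes and 8 modifying genes), against 35.2% of all genes. With the lowest 50% left out 7 of 17 tested chain genes were called, against 40.6% of all genes. Without a filter on level 3 modifying genes were called, where 19.6% of all genes were. With log2(intensity + 16), 12 members were higher and 0 lower (no member lower at an adjusted p under 0.05 in limma, 18 members in either direction at an unadjusted p under 0.05). Of all genes, 34.8% were called on that scale. After quantile normalization 3 chain genes were higher and 2 lower, where 32.6% of all genes were called. With the replicate number as a block, 7 members passed, with 3 modifying genes and 9 member probe sets called. Of all genes, 20.3% were called in that gene fit, and the samples share only a number. The block ended the calls of P4HA2 (adjusted p = 0.0823) and LOXL1 (adjusted p = 0.0783). Leaving out 1 array at a time gave 0 to 5 members, 0 to 2 chain genes, 0 to 3 modifying genes, 0 to 5 other pathway genes and 0 member probe sets by limma (20 to 32 probe sets at an unadjusted p under 0.05); each such fit has fewer samples, and the lone array of a group is assumed to vary like the other group. Signs turned for COL6A1 (-0.039) and FKBP10 (-0.44) without _s_at and _x_at probe sets. They also turned for FKBP10 (-0.038) as the mean over probe sets above the filter, and for SERPINH1 (-0.023) after quantile normalization. For the other changed values the cause was not tested. The 15 members below the filter were not tested.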
